A study of Selenicereus undatus with 4 samples.

Results

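The genes described here are the calcium sensors, calcium-dependent kinases, calcium pumps and calcium-permeable channels of pitaya, a climbing cactus. They were chosen by words in the annotations of the deposited comparison of L2 with NL: calmodulin, calcium-dependent protein kinase, calcineurin B, CBL-interacting, calcium-binding protein, calcium-transporting ATPase, cyclic nucleotide-gated and glutamate receptor. These words matched 69 of the 11051 listed genes. The words use no measured value, but they were chosen with earlier results of these data known. Every listed gene had also been called differentially expressed by the authors on these same libraries. The tests below therefore repeat a contrast that already selected the genes, and they are no independent evidence of a change.

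The plants were 'Jindu No.1', a red-fleshed cultivar grown in the field in Hainan and 1 year old, and the sample was the tissue around the thorn seat of the stem, the place where flower buds arise. L2 plants had received supplementary light at night and were sampled about 1 week after the bud stage. NL plants received no supplementary light and did not flower, with watering and fertilization as in L2. The table holds 3 libraries per stage, and the study describes each replicate as a mix of 4 plants. L2 and NL differ at once in light and in bud development, which cannot be told apart here. The stages L0 and L1 were not analysed here.

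Calcium ions act as a messenger inside plant cells. Channels let calcium into the cytosol and pumps remove it, and sensor proteins with EF hands bind it. Calmodulin and calmodulin-like proteins pass the signal on by binding other proteins. Calcineurin B-like (CBL) proteins do so by binding and activating CBL-interacting protein kinases (CIPKs), whereas calcium-dependent protein kinases (CDPKs) carry sensor and kinase in one chain. This network is best known for responses to salt, drought, cold, wounding and pathogens, and it also takes part in growth and pollen tube elongation.

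The unit of the values is RPKM, the reads of a unigene divided by its length and by the library total, so levels can be compared between unigenes. Library totals were 5803177 to 7533457 reads in L2 and 3860701 to 5269237 reads in NL, and 43.9% to 44.2% of them in L2 and 46.0% to 48.6% in NL fell on listed genes. Other gene groups moved as well. Of 36 listed genes with annotations of green stem tissue, 4 rose and 29 fell, and their summed RPKM was 837 to 1707 in L2 against 4583 to 5642 in NL, with 5 of them at no reads in L2. Of 23 floral bud genes 19 rose and 4 fell (704 to 784 against 294 to 306 summed RPKM, 3 at no reads in NL), and of 82 genes of dividing tissue 66 rose and 15 fell (819 to 1161 against 522 to 641, 4 at no reads in NL). In the last list, chosen by annotation words, 52 were kinesins (42 rose, 9 fell) and 23 were cyclin-D unigenes (19 rose, 4 fell). Its 3 histone H3 and 2 histone H4 unigenes rose, but its 2 cyclin-B unigenes fell. Of all listed genes 63.0% were called higher and 36.3% lower. The part of these shifts in the calcium genes was not tested. In bulk tissue, fewer cells of a type and less RNA per cell cannot be told apart.

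The make-up of the 69 listed calcium unigenes differed between the stages. Calcium genes that the authors did not call are not listed, so the sums, shares and ranks given here are among the 69 only. Each member was selected for a change, so some shift in make-up was built in. The 69 unigenes together had 2382, 2055 and 1940 RPKM in the L2 libraries and 2038, 2078 and 1988 RPKM in the NL libraries, and these ranges overlap. This holds for RPKM as deposited: with the other scalings given below the sum was lower in every L2 library, at 1797 ± 265 against 2416 ± 76.9 RPKM with upper quartile scaling and 1468 ± 218 against 2957 ± 54.7 RPKM with DESeq2's size factors (SD, n = 3 libraries each). The shares of the roles within a library do not depend on the scaling. CIPKs made up 14.6% of this sum in L2 and 50.8% in NL. Calmodulins made up 37.0% in L2 and 17.4% in NL, and CDPKs 11.4% in L2 and 4.17% in NL. The most abundant member in L2 was a Calmodulin-7 unigene, which ranked 2 in NL, and the most abundant member in NL was a CIPK4 unigene, which ranked 5 in L2.

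All 69 members passed limma's test on log2(RPKM + 0.1) at an adjusted p of 0.05. Of these, 46 were higher in L2 (66.7%) and 23 were lower (33.3%), against 63.0% of all listed genes called higher and 36.3% called lower. In no member did a library of L2 fall within the range of NL or the reverse, and the same held for 97.6% of all listed genes. The shares of the members are near this background, and so is their median log2 change of 1.31, against 1.43 over all listed genes. The split by direction over the whole set is thus no result about calcium genes, and the values below are given by role. A mean of at least 1 RPKM in both stages was reached by 57 members, and 3 members had no reads in NL. Rises depended on the scaling of the libraries. With upper quartile scaling (limma) 35 members were higher and 23 lower, with TMM factors (edgeR) 18 and 23, and with DESeq2's size factors (DESeq2) 8 and 23. With library totals edgeR and DESeq2 each called 46 higher and 23 lower, and limma called 17 and 23 with TMM factors and 9 and 23 with DESeq2's size factors, so that these counts moved with the scaling and little with the test. No member changed direction in any of these fits. Below, TMM scaling refers to the edgeR fit and DESeq2 scaling to the DESeq2 fit. Upper quartile, TMM and DESeq2 scaling each set L2 lower against NL, which enlarges falls and shrinks rises. That falls keep their calls under these scalings was thus built in, and it does not make them firmer than the rises.

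**Figure D1:**
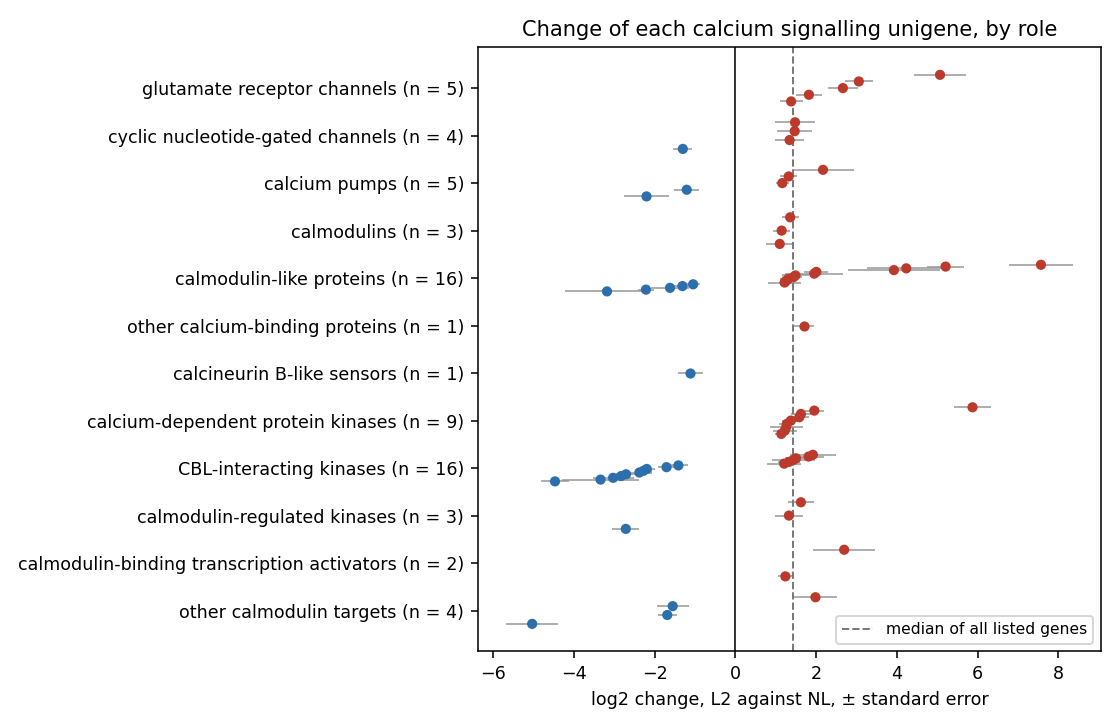
Log2 change of each of the 69 unigenes (points, L2 against NL by limma on log2(RPKM + 0.1); bars, standard error), arranged by role on the vertical axis; red marks higher and blue lower in L2. All glutamate receptor channels, calmodulins and CDPKs lie right of 0, CIPKs reach from -4.47 to 1.92, and the dashed line is the median of all listed genes, 1.43.

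Among the channels, the 5 glutamate receptor unigenes all rose, with a median log2 change of 2.66. Plant glutamate receptor-like proteins are calcium-permeable cation channels, and in Arabidopsis GLR3.3 is needed for electrical wound signals that travel between leaves. Their summed level was 69.3, 53.1 and 67.3 RPKM in L2 and 13.5, 13.8 and 12.0 RPKM in NL. Every L2 library stood above every NL library in each of the 5 unigenes, so the same separation in this sum was built in.

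The more abundant GLR3.3 unigene, Unigene0051513, had 24.1, 13.9 and 20.2 RPKM in L2 and 3.79, 6.77 and 5.72 RPKM in NL (log2 change 1.82 ± 0.31 SE, limma adjusted p = 0.00107). L2 replicate 2 was the lowest of the L2 libraries and still above all of NL. The other GLR3.3 unigene, Unigene0050956, changed least of the 5 (log2 change 1.38 ± 0.29, adjusted p = 0.00254), with 9.47 ± 1.19 RPKM in L2 and 3.59 ± 0.656 RPKM in NL (SD, n = 3 libraries each). The GLR3.2 unigene Unigene0051745 had 12.5, 15.2 and 15.2 RPKM in L2 and 3.33, 2.10 and 1.43 RPKM in NL. GLR3.4-like Unigene0045306 had 20.7, 10.8 and 16.6 RPKM in L2 and 2.07, 1.85 and 1.46 RPKM in NL, a log2 change of 3.06 ± 0.35 (adjusted p = 0.000159). The second GLR3.4-like unigene, Unigene0054901, is 430 nt long and had 31 reads over the L2 libraries and none in NL. Against a floor of 3 reads over the NL libraries it was 7.37-fold higher in L2, with its L2 reads taken as exact. Under TMM and under DESeq2 scaling 4 of the 5 were still called higher, and with DESeq2's size factors in limma 3.

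Cyclic nucleotide-gated channels, cation channels with a calmodulin-binding region, went both ways: 3 of 4 unigenes rose and 1 fell. The one that fell was the most abundant in NL, Unigene0041554, annotated as channel 1 (CNGC1), with 6.36, 8.08 and 5.52 RPKM in L2 and 16.4, 17.9 and 14.9 RPKM in NL (log2 change -1.30 ± 0.23, adjusted p = 0.00127). A pair of other unigenes with the same CNGC1 annotation rose. Unigene0049342 had 15.0, 11.5 and 9.86 RPKM in L2 and 5.28, 6.68 and 2.15 RPKM in NL, and Unigene0004659 had 7.42, 5.18 and 4.19 RPKM in L2 and 2.69, 2.60 and 0.952 RPKM in NL. The log2 changes were 1.47 ± 0.44 (adjusted p = 0.0122) for Unigene0049342 and 1.48 ± 0.51 (adjusted p = 0.0217) for Unigene0004659. NL replicate 3 was lowest in both. Unigene0051040, annotated as CNGC20, had 17.9, 8.61 and 12.9 RPKM in L2 and 3.43, 6.33 and 5.43 RPKM in NL. None of the 3 rises was called with upper quartile, TMM or DESeq2 scaling. Without L2 replicate 1 the calls of Unigene0049342 and Unigene0004659 were lost (adjusted p = 0.0606 and 0.0846), and without L2 replicate 2 that of Unigene0004659 (0.0557).

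The calcium pumps went both ways. Both endoplasmic reticulum-type ATPases, which load calcium into internal stores, rose. Of the 3 plasma membrane-type ATPases, which in Arabidopsis are autoinhibited pumps activated by calmodulin and export calcium from the cell, 2 fell and 1 rose. With 5 unigenes this split was described and not tested.

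Unigene0036354 (endoplasmic reticulum-type 4) was the most abundant pump, with 80.5, 89.7 and 99.7 RPKM in L2 and 40.2, 43.3 and 36.9 RPKM in NL (log2 change 1.16 ± 0.16, adjusted p = 0.000374). It made up 72.9% of the pumps' summed RPKM in L2 and 50.8% in NL. Unigene0047426 (endoplasmic reticulum-type 3) had 18.4, 18.1 and 21.2 RPKM in L2 and 8.88, 7.54 and 6.63 RPKM in NL. The libraries of each stage lay close together for both. Neither rise was called with TMM or DESeq2 scaling, whereas both plasma membrane falls were.

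Unigene0040347, annotated as plasma membrane-type ATPase 12, had 5.32, 4.22 and 1.05 RPKM in L2 and 15.3, 14.3 and 11.8 RPKM in NL (log2 change -2.20 ± 0.56, adjusted p = 0.00636). L2 replicate 3 was far below the other L2 libraries, and without it the log2 change was -1.51. Unigene0049384 (plasma membrane-type 8-like) had 7.32 ± 2.57 RPKM in L2 and 16.8 ± 4.41 RPKM in NL. The second ATPase 12 unigene, Unigene0021951, went the other way, with 2.51, 6.30 and 1.41 RPKM in L2 and 0.181, 0.851 and 0.935 RPKM in NL (log2 change 2.17 ± 0.76, adjusted p = 0.0236). In RPKM its L2 libraries varied by more than its NL libraries, but relative to its level both stages varied widely. The call of Unigene0021951 was lost without NL replicate 1, L2 replicate 1 or L2 replicate 2 (adjusted p = 0.0722, 0.0633 and 0.0856).

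**Figure D2:**
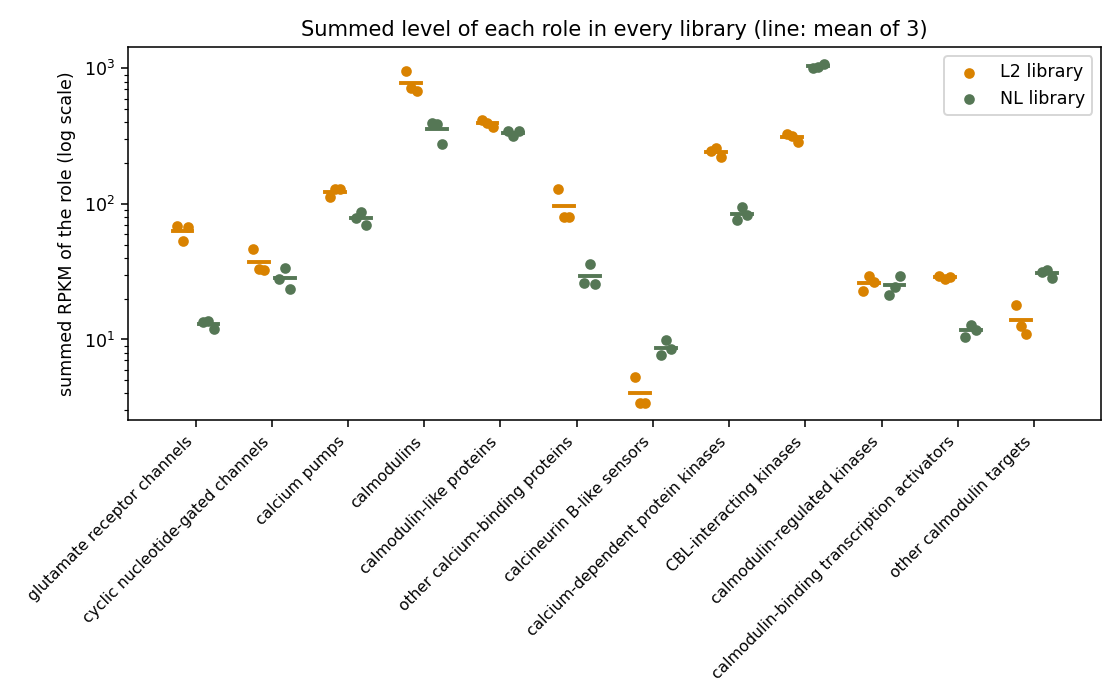
Summed RPKM of the members of each role (vertical log axis) in each of the 3 L2 libraries (orange) and 3 NL libraries (green), with a line at the mean of a stage. The glutamate receptor, CDPK and calmodulin sums are higher in every L2 library, the CIPK sum is lower in every L2 library (287 to 328 against 1004 to 1073), and the calmodulin-like sums lie close together (368 to 416 against 315 to 347). All unigenes of the first 3 roles rose without overlap, so the separation of their sums was built in. With TMM or DESeq2's size factors the calmodulin sums overlap.

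All 3 calmodulin unigenes rose. Their summed level was 961, 716 and 682 RPKM in L2 and 394, 392 and 278 RPKM in NL. With upper quartile scaling the sums were 545 to 837 RPKM in L2 and 326 to 477 RPKM in NL. The stages overlapped with TMM factors (475 to 746 RPKM in L2, 392 to 531 RPKM in NL). They also overlapped with DESeq2's size factors (434 to 672 RPKM in L2, 418 to 577 RPKM in NL). Calmodulin binds calcium through EF hands and regulates pumps, channels, kinases and transcription factors. Unigene0042567 (Calmodulin-7) held most of the sum, with 580, 467 and 499 RPKM in L2 and 242, 272 and 189 RPKM in NL (log2 change 1.15 ± 0.21, adjusted p = 0.00149). The second Calmodulin-7 unigene, Unigene0027228, was much less abundant and showed the largest change of the 3, with 25.9, 31.4 and 36.0 RPKM in L2 and 13.4, 12.7 and 10.1 RPKM in NL (log2 change 1.36 ± 0.21, adjusted p = 0.000625). Unigene0024686, annotated as calmodulin without a number, spread widely, at 355, 218 and 147 RPKM in L2 and 138, 107 and 78.6 RPKM in NL. The lowest L2 library of this unigene stood just above the highest NL library, and its call was lost without NL replicate 3 (adjusted p = 0.0586) or L2 replicate 1 (0.0571). None of the 3 was called with TMM or DESeq2 scaling (1 with TMM factors in limma), and all 3 changes are below the median of all listed genes.

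Calmodulin-like proteins (CML), EF-hand sensors that differ more from calmodulin in sequence, formed a mixed class of 16 unigenes, of which 11 rose and 5 fell. The risers summed to 309 RPKM in L2 and 101 RPKM in NL, and the fallers to 83.8 RPKM in L2 and 235 RPKM in NL. The class sum was 393 ± 23.8 RPKM in L2 and 336 ± 18.1 RPKM in NL (SD, n = 3 libraries each), but it was lower in L2 with the other scalings, for example 271 ± 31.9 RPKM in L2 and 489 ± 44.0 RPKM in NL with DESeq2's size factors. Of the 11 rises 9 were called with upper quartile, 4 with TMM and 2 with DESeq2 scaling, whereas all 5 falls were called under each. The leading member differed between the stages: in NL it was a CML23 unigene and in L2 a CML13 unigene.

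The largest limma log2 change among all 69 members was that of Unigene0024622, annotated as CML13, with 34.4, 42.1 and 34.3 RPKM in L2 and 0, 0.630 and 0 RPKM in NL. The reads behind these values were 578 in L2 and 2 in NL. The ratio of mean RPKM was 176, with a 95% exact interval of the ratio of reads of 56.8 to 1707, which covers counting error only. The limma log2 change on log2(RPKM + 0.1) was 7.57 ± 0.79 (adjusted p = 0.000109), and 8.53 without NL replicate 2, the NL library that holds both reads. The order at the top depends on the tool, since CDPK29, without reads in NL, had the larger fitted change by edgeR with library totals (8.87 against 7.48) and by DESeq2 (6.96 against 6.61). The second CML13 unigene, Unigene0027834, was well expressed in both stages, with 69.9, 67.0 and 79.1 RPKM in L2 and 28.2, 31.9 and 30.1 RPKM in NL (log2 change 1.25 ± 0.15, adjusted p = 0.000217). The 2 unigenes of this annotation thus stood at 0.210 and 30.1 RPKM in NL, but at 37.0 and 72.0 RPKM in L2.

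Unigene0012698 (calmodulin-like protein 1) had 2.81, 3.40 and 4.86 RPKM in L2 and no reads in NL. Its 49 L2 reads make it 11.7-fold higher in L2 against the floor of 3 reads over the NL libraries. Unigene0026988 (calmodulin-like protein 7) and Unigene0013013 (calmodulin-like protein 8) were also close to 0 in NL, with 4 reads each over the 3 libraries, against 69 reads for Unigene0026988 and 48 reads for Unigene0013013 in L2. At this depth their log2 changes of 4.23 ± 0.98 and 3.93 ± 1.14 rest on few reads: without NL replicate 3 the log2 change of Unigene0026988 was 5.35, that of Unigene0013013 was 5.30 without NL replicate 1 and 3.24 without NL replicate 2 or 3, and without L2 replicate 1 the call of Unigene0013013 was lost (adjusted p = 0.0597).

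The other CML rises were of moderate size. The second calmodulin-like protein 7 unigene, Unigene0031997, had 56.9 ± 7.28 RPKM in L2 and 23.2 ± 5.40 RPKM in NL, and Unigene0003054, annotated as calmodulin-like, 46.6 ± 7.88 RPKM in L2 and 17.2 ± 3.23 RPKM in NL. Unigene0028385 (CML30) had 18.8 ± 1.91 RPKM in L2 and 4.78 ± 1.75 RPKM in NL, and Unigene0031387 (CML49) 12.3 ± 3.51 RPKM in L2 and 4.35 ± 1.29 RPKM in NL. The call of Unigene0036823 (CML41), at 45.4, 30.6 and 23.8 RPKM in L2 and 20.5, 11.7 and 2.26 RPKM in NL, was the least stable, being lost without any one of the L2 libraries (adjusted p = 0.131, 0.0829 and 0.0621 without L2 replicates 1, 2 and 3). Its log2 change was 1.95 with all libraries, 1.04 without NL replicate 3 and 2.61 without NL replicate 1.

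The fallers included the most abundant CML unigene of NL, Unigene0029141, annotated as CML23, with 39.3, 52.4 and 27.7 RPKM in L2 and 85.1, 79.6 and 130 RPKM in NL (log2 change -1.31 ± 0.28, adjusted p = 0.00303). In Arabidopsis CML23 acts with its close relative CML24 in the timing of flowering. The symbol column of the table gives the same unigene as CML18, so its place within the family is uncertain. The second CML23 unigene, Unigene0009415, was scarce, with 0, 0.961 and 1.92 RPKM in L2 and 4.31, 5.78 and 6.09 RPKM in NL (log2 change -3.18 ± 1.05, adjusted p = 0.0183). Its call was lost without NL replicate 2 (adjusted p = 0.0524) or NL replicate 3 (0.0538), and its log2 change was -1.89 without L2 replicate 1 and -4.06 without L2 replicate 3.

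Unigene0025336 (CML18) fell most among the well-covered CML unigenes, with 17.6, 12.0 and 15.8 RPKM in L2 and 81.9, 66.5 and 62.7 RPKM in NL (log2 change -2.22 ± 0.20, adjusted p = 7.36e-05). Unigene0033967 (CML21) had 23.0 ± 2.65 RPKM in L2 and 47.4 ± 1.39 RPKM in NL. CML44 had one unigene in each direction: Unigene0023970 had 25.1, 19.6 and 13.8 RPKM in L2 and 11.2, 10.6 and 4.42 RPKM in NL, and Unigene0025108 had 3.23, 8.86 and 2.80 RPKM in L2 and 9.26, 16.1 and 16.4 RPKM in NL. Both CML44 calls were lost without L2 replicate 1 (adjusted p = 0.0882 and 0.0570), and that of Unigene0023970 also without L2 replicate 2 (0.0609).

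One further EF-hand protein, Unigene0021131, is annotated as PBP1-like. In Arabidopsis PBP1 binds the protein kinase PINOID, a regulator of auxin transport, in a calcium-dependent way. The unigene had 128, 79.8 and 80.3 RPKM in L2 and 25.9, 36.2 and 25.6 RPKM in NL (log2 change 1.70 ± 0.24, adjusted p = 0.000469). It ranked 3 among the members in L2 and 13 in NL, and it was called with TMM factors but not with DESeq2's size factors.

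The CIPKs were the role with the largest number of falls. Of 16 unigenes 10 fell (62.5%) and 6 rose (37.5%), with a median log2 change of -1.95. Over all listed genes 36.3% were called lower and 63.0% higher. The CIPKs and the calmodulin-like proteins were the largest roles, with 16 unigenes each, so the number of falls depends in part on class size. By share, a class of calmodulin-binding proteins given below (3 of 4) and the 1 listed CBL fell more often. The share is given as a description. The summed level of the CIPKs was 328, 318 and 287 RPKM in L2 and 1004, 1024 and 1073 RPKM in NL. The 10 fallers summed to 175 RPKM in L2 and 991 RPKM in NL, and the 6 risers to 137 RPKM in L2 and 42.4 RPKM in NL. All 10 falls were called under upper quartile, TMM and DESeq2 scaling, but 4, 3 and 0 of the 6 rises were (0 with TMM factors in limma). These scalings enlarge falls and shrink rises, so this contrast was largely built in.

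The CIPK sum in NL was dominated by Unigene0028633, annotated as CIPK4, with 92.1, 57.8 and 76.5 RPKM in L2 and 517, 536 and 534 RPKM in NL (log2 change -2.83 ± 0.21, adjusted p = 4.74e-05). It made up 24.3% of the CIPK sum in L2 and 51.2% in NL. Without it the sum was 236 ± 25.0 RPKM in L2 and 505 ± 29.4 RPKM in NL, still lower in L2. A second CIPK4 unigene, Unigene0031983, fell by a like amount on a lower level, with 3.25, 4.21 and 2.98 RPKM in L2 and 19.6, 26.7 and 23.6 RPKM in NL (log2 change -2.71 ± 0.25, adjusted p = 7.54e-05).

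The largest fall of a CIPK was that of Unigene0040118 (CIPK5), with 5.82, 3.08 and 8.95 RPKM in L2 and 108, 125 and 137 RPKM in NL (log2 change -4.47 ± 0.36, adjusted p = 5.64e-05). It ranked 4 among the 69 members in NL and 46 in L2. The other CIPK5 unigene, Unigene0021863, was scarce, with 0, 0 and 0.987 RPKM in L2 and 3.04, 1.49 and 2.18 RPKM in NL. Its reads numbered 5 in L2 and 27 in NL, its call was lost without L2 replicate 1 (adjusted p = 0.0554), and its log2 change of -3.34 became -4.49 without L2 replicate 3.

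CIPK24 is the kinase known in Arabidopsis as SOS2, which together with the calcium sensor SOS3 activates the sodium/proton exchanger SOS1 in salt tolerance. All 3 CIPK24 unigenes fell. Unigene0003713 had 13.9, 8.53 and 14.5 RPKM in L2 and 33.4, 32.6 and 30.1 RPKM in NL, Unigene0054258 had 7.02, 5.29 and 5.29 RPKM in L2 and 28.6, 24.8 and 27.9 RPKM in NL, and Unigene0054255 had 5.14, 2.67 and 2.89 RPKM in L2 and 21.1, 17.4 and 16.4 RPKM in NL. The log2 changes were -1.41 ± 0.24, -2.20 ± 0.21 and -2.38 ± 0.31 in this order. These unigenes are 1071, 586 and 775 nt long, and whether they are parts of one gene cannot be told from the table. Among the exchangers, Unigene0014655, annotated as sodium/hydrogen exchanger 7, the Arabidopsis name for SOS1, had 15.0, 23.2 and 22.8 RPKM in L2 and 11.8, 7.09 and 8.94 RPKM in NL (limma log2 change 1.125 ± 0.28, adjusted p = 0.00543), the opposite direction to the CIPK24 unigenes. This unigene is 913 nt long, and its rise is close to the 1.08 (log2) by which DESeq2's size factors set L2 lower. All 4 listed sodium/hydrogen exchangers rose, so the direction is not particular to this one.

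CIPK9, in Arabidopsis a kinase of low-potassium responses, went both ways. Unigene0000531 had 6.75, 10.3 and 8.32 RPKM in L2 and 42.1, 39.7 and 40.5 RPKM in NL (log2 change -2.28 ± 0.21, adjusted p = 7.10e-05), though its symbol is CIPK6. Unigene0045603 also fell, with 0.800 ± 0.410 RPKM in L2 and 6.68 ± 0.641 RPKM in NL. Unigene0048454 rose, with 33.1, 31.4 and 24.9 RPKM in L2 and 11.8, 13.6 and 7.01 RPKM in NL (log2 change 1.50 ± 0.28, adjusted p = 0.00151). Unigene0024231 had 5.38 ± 0.772 RPKM in L2 and 2.39 ± 1.04 RPKM in NL, and its call was lost without NL replicate 2, NL replicate 3, L2 replicate 2 or L2 replicate 3 (adjusted p = 0.0541 to 0.0663). Of the 2 CIPK9 unigenes that share one annotation word for word, Unigene0024231 and Unigene0048454, both rose.

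CIPK14 held the largest rise of the class beside one of its abundant fallers. Unigene0028279 had 19.5, 34.8 and 7.08 RPKM in L2 and 6.60, 3.88 and 3.31 RPKM in NL (log2 change 1.92 ± 0.57, adjusted p = 0.0116), and Unigene0006126 had 61.8, 76.6 and 27.6 RPKM in L2 and 17.9, 13.7 and 12.0 RPKM in NL (log2 change 1.81 ± 0.38, adjusted p = 0.00245). In both the L2 libraries had the same order, replicate 2 highest and replicate 3 lowest. The lowest L2 value of Unigene0028279 was close to its highest NL value. Its call was lost without L2 replicate 1 (adjusted p = 0.0604), and its log2 change was 2.54 without L2 replicate 3. The third CIPK14 unigene, Unigene0038368, was the more abundant and fell, with 50.8, 48.8 and 75.4 RPKM in L2 and 172, 169 and 224 RPKM in NL (log2 change -1.71 ± 0.22, adjusted p = 0.000286). In the symbol column Unigene0006126 and Unigene0038368 are CIPK11.

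Of the remaining CIPKs, Unigene0049821 (CIPK 07) had 20.9, 20.1 and 21.7 RPKM in L2 and 11.0, 8.79 and 5.79 RPKM in NL. Unigene0032088 (CIPK11) had 3.22, 8.03 and 2.89 RPKM in L2 and 1.65, 1.93 and 1.06 RPKM in NL, and its call was lost without NL replicate 1, NL replicate 3 or L2 replicate 2 (adjusted p = 0.0537, 0.0800 and 0.102). The one listed partner of these kinases, Unigene0032564, annotated as calcineurin B-like protein 06 with the symbol CBL10, had 5.30, 3.38 and 3.37 RPKM in L2 and 7.65, 9.95 and 8.44 RPKM in NL (log2 change -1.12 ± 0.31, adjusted p = 0.00898). It was lower in every L2 library, and it was called under each of the scalings.

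**Figure D3:**
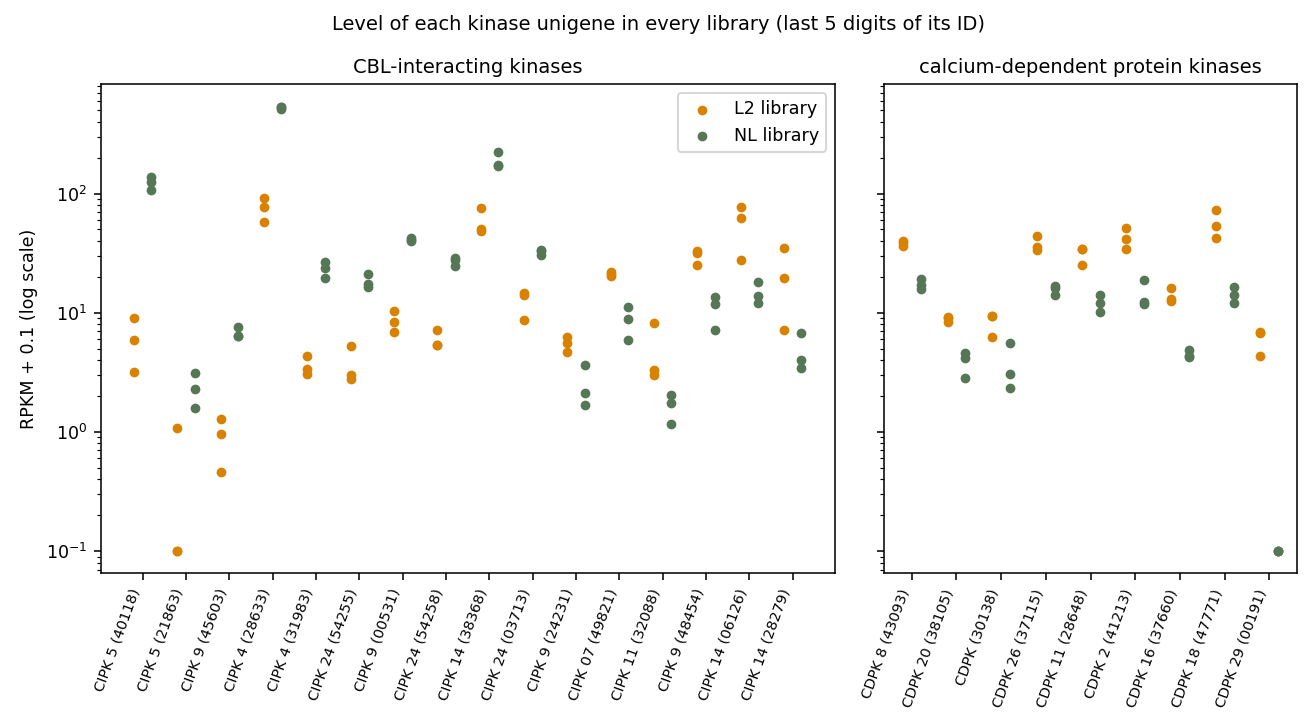
RPKM + 0.1 (vertical log axis) of the 16 CIPK unigenes (left) and 9 CDPK unigenes (right) in the 3 L2 libraries (orange) and 3 NL libraries (green), ordered by log2 change, with the last 5 digits of each unigene's ID. The 10 CIPK unigenes at the left are lower in every L2 library, the other CIPKs and all CDPKs are higher, and CDPK29, last at the right, has no reads in NL.

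In contrast to the split among CIPKs, all 9 CDPK unigenes rose, with a median log2 change of 1.37. Their summed level was 245, 259 and 223 RPKM in L2 and 76.6, 95.6 and 82.2 RPKM in NL, a ratio of means of 2.86. Because 63.0% of all listed genes were called higher and the class is small, the share is given as a description. Upper quartile scaling called 8 of the 9 higher, TMM factors 4 and DESeq2's size factors 2, and 4 of the 9 lay above the median change of all listed genes.

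Unigene0047771 (CDPK18) was the most abundant CDPK in L2, with 53.2, 73.2 and 41.9 RPKM in L2 and 12.1, 16.4 and 13.9 RPKM in NL (log2 change 1.96 ± 0.24, adjusted p = 0.000232). In NL the leading CDPK was Unigene0043093 (CDPK8), which changed least, with 36.5, 38.1 and 40.0 RPKM in L2 and 17.0, 19.1 and 15.8 RPKM in NL (log2 change 1.14 ± 0.16, adjusted p = 0.000461). The L2 libraries of CDPK8 lay close together, those of CDPK18 did not. Unigene0041213 (CDPK2) had 51.1, 34.1 and 41.8 RPKM in L2 and 11.7, 18.6 and 12.3 RPKM in NL.

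The largest rise in the class was that of Unigene0000191 (CDPK29), with 4.23, 6.63 and 6.82 RPKM in L2 and no reads in NL. With 200 reads in L2 it was 47.6-fold higher than the floor of 3 reads over the NL libraries. The remaining 5 unigenes had log2 changes of 1.22 to 1.62. Unigene0037115 (CDPK26) had 37.7 ± 5.73 RPKM in L2 and 15.5 ± 1.40 RPKM in NL, and Unigene0028648 (CDPK11) 31.2 ± 5.22 RPKM in L2 and 12.0 ± 1.92 RPKM in NL. Unigene0037660 (CDPK16) had 13.7 ± 1.87 RPKM in L2 and 4.38 ± 0.362 RPKM in NL, and Unigene0038105 (CDPK20) 8.74 ± 0.488 RPKM in L2 and 3.76 ± 0.913 RPKM in NL. The class also holds Unigene0030138, annotated as a CDPK without a number, at 9.21, 6.14 and 9.31 RPKM in L2 and 2.98, 2.23 and 5.48 RPKM in NL. Its call was lost without NL replicate 2, L2 replicate 1 or L2 replicate 3 (adjusted p = 0.0514, 0.0641 and 0.0604).

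Among the kinases that calmodulin regulates, 2 of 3 rose. Unigene0033051 is annotated as the calcium and calmodulin-dependent kinase that legumes need for root symbiosis, and it had 9.85, 9.24 and 10.9 RPKM in L2 and 2.67, 2.71 and 4.41 RPKM in NL (log2 change 1.62 ± 0.31, adjusted p = 0.00179). The other 2 are calmodulin-binding receptor-like cytoplasmic kinases (CRCK), which moved in opposite directions. CRCK3 (Unigene0033506) had 10.8, 18.2 and 12.7 RPKM in L2 and 5.56, 7.75 and 3.56 RPKM in NL, and CRCK2 (Unigene0040731) had 2.23, 1.81 and 3.07 RPKM in L2 and 13.2, 14.0 and 21.2 RPKM in NL. The log2 changes were 1.33 ± 0.35 (adjusted p = 0.00740) for CRCK3 and -2.72 ± 0.33 (adjusted p = 0.000219) for CRCK2. The CRCK2 fall was called under each of the scalings, but of the 2 rises 1 was called with upper quartile, 1 with TMM and 0 with DESeq2 scaling. The sum of the class was 26.3 ± 3.19 RPKM in L2 and 25.0 ± 3.90 RPKM in NL with library totals, with CRCK3 leading it in L2 and CRCK2 in NL, and 18.1 ± 2.88 RPKM in L2 and 36.5 ± 6.54 RPKM in NL with DESeq2's size factors.

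Both calmodulin-binding transcription activators (CAMTA), DNA-binding proteins that in Arabidopsis act in cold responses and restrain immunity, rose. Unigene0050501 (CAMTA2) had 28.8, 25.8 and 26.4 RPKM in L2 and 10.1, 12.9 and 11.4 RPKM in NL (log2 change 1.24 ± 0.18, adjusted p = 0.000532). CAMTA5 (Unigene0048629) was scarce, with 39 reads in L2 and 4 reads in NL, and its log2 change of 2.69 ± 0.77 (adjusted p = 0.0102) was 1.96 without NL replicate 2. Neither was called with TMM or DESeq2 scaling.

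Of the 4 calmodulin-binding protein 60 (CBP60) unigenes, 3 fell and 1 rose. In Arabidopsis CBP60g promotes salicylic acid synthesis in immunity, whereas CBP60a restrains it. The unigene annotated as CBP60 G, Unigene0049708, had 4.25, 5.49 and 4.66 RPKM in L2 and 16.4, 16.6 and 13.9 RPKM in NL (log2 change -1.69 ± 0.23, adjusted p = 0.000383). The unigene annotated as CBP60 A, Unigene0045322, had 10.2, 4.82 and 4.55 RPKM in L2 and 1.03, 2.55 and 1.18 RPKM in NL (log2 change 1.98 ± 0.52, adjusted p = 0.00724). These opposite changes were larger than the spread of the libraries, but the symbol column gives both unigenes as CBP60B, so the subfamily names are uncertain.

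The largest fall among all 69 members was that of a CBP60 B-like unigene, Unigene0007126, with 0.319, 0.0690 and 0 RPKM in L2 and 4.95, 5.71 and 8.44 RPKM in NL (log2 change -5.04 ± 0.65, adjusted p = 0.000272). It rests on 7 reads in L2 and 222 reads in NL. The other CBP60 B-like unigene, Unigene0000109, had 3.09, 2.20 and 1.80 RPKM in L2 and 9.02, 7.81 and 4.80 RPKM in NL. All 3 falls were called under each of the scalings, while the rise of Unigene0045322 was not called with DESeq2 scaling (log2 change 1.01, adjusted p = 0.112).

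The names rest on matches to proteins of other species. An annotation is shared word for word by 29 of the 69 members, in 13 annotations, and 4 of these annotations hold unigenes that moved in opposite directions: CIPK14, CNGC1, plasma membrane-type ATPase 12 and CML44. Where reads fit more than one such unigene, the split of counts between them is uncertain. Of 58 members for which both the description and the symbol carry a family number, 17 had different numbers, 5 of them CIPKs, 5 CDPKs and 5 CML unigenes. For a pair of CDPKs the symbol names no CDPK either: Unigene0037660 has the symbol CRK3, a CDPK-related kinase, and Unigene0030138 has At4g15970.

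The pathway annotations in the table cut across these roles. A KEGG pathway was given for 30 members, of which 23 rose and 7 fell, beside 63.0% and 36.3% of all listed genes. Of these, 26 were in plant-pathogen interaction, where they made up 26 of its 55 listed genes, with 22 rises and 4 falls. Of the 22 rises 16 were called with upper quartile, 6 with TMM and 4 with DESeq2 scaling. The 26 members in this pathway, rises and falls together, comprised 12 CML unigenes, 7 CDPKs, 4 cyclic nucleotide-gated channels and 3 calmodulins, and no CIPK. The 4 CIPKs with a pathway were in regulation of autophagy.

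Other genes of calcium signalling, taken by a list of annotation words, moved mainly upward: of 66 listed unigenes 58 rose and 8 fell, with a median log2 change of 1.95. Over all listed genes 63.0% were called higher and 36.3% lower. With TMM factors 39 of the 66 were called higher and 8 lower, with DESeq2's size factors 32 and 8, and under DESeq2's scaling 3 unigenes changed sign, none of which is named here. Calcium-binding chaperones of the endoplasmic reticulum rose, with 4 of 4 calreticulins and the 1 calnexin. The calreticulin-like Unigene0045289 had 421, 358 and 460 RPKM in L2 and 99.3, 86.0 and 102 RPKM in NL (log2 change 2.10 ± 0.18, adjusted p = 6.13e-05), and the calnexin homolog Unigene0034744 had 238, 188 and 265 RPKM in L2 and 67.1, 74.9 and 75.4 RPKM in NL. The endoplasmic reticulum-type pumps moved in the same direction.

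All 6 annexins, calcium-dependent membrane-binding proteins, rose, as did the 4 respiratory burst oxidases, NADPH oxidases that calcium and CDPKs activate. Annexin-like Unigene0034232 had 147, 138 and 115 RPKM in L2 and 39.9, 29.2 and 34.9 RPKM in NL. The most abundant oxidase, Unigene0043867 (protein B), had 178, 153 and 178 RPKM in L2 and 107, 63.7 and 35.6 RPKM in NL. Proteins with an IQ-DOMAIN name, which bind calmodulin, were the largest group: 17 of 19 rose and 2 fell, with a median log2 change of 3.07.

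The exchangers went in opposite directions by kind. Both vacuolar cation/proton exchangers, which load calcium into the vacuole, fell, and all 4 cation/calcium exchangers rose. Vacuolar exchanger 3-like Unigene0043740 had 6.42, 6.21 and 6.96 RPKM in L2 and 122, 111 and 100 RPKM in NL (log2 change -4.07 ± 0.16, adjusted p = 2.94e-05). The smallest NL value of this unigene was far above the largest L2 value. Both unigenes of the chloroplastic calcium sensing receptor, a thylakoid protein, fell as well: Unigene0049410 had 8.38, 12.6 and 7.98 RPKM in L2 and 66.5, 64.1 and 71.3 RPKM in NL. The green stem genes given above fell alongside them, and their part was not tested.

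**Figure D4:**
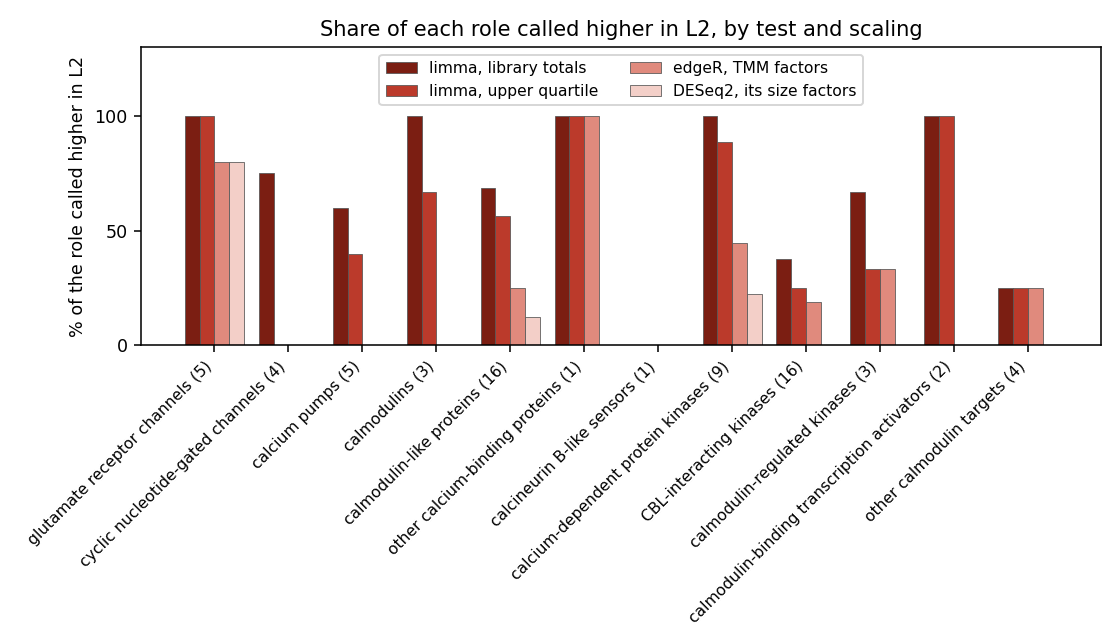
Share of the unigenes of each role that were called higher in L2 (vertical axis, %), for 4 fits from dark to light: limma with library totals, limma with upper quartile scaling, edgeR with TMM factors and DESeq2 with its size factors; the number of unigenes is in brackets and a missing bar is 0. Glutamate receptor channels keep 4 of 5 calls in the edgeR and DESeq2 fits, CDPKs 4 and 2 of 9, and calmodulins none of 3.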

How the data were processed

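The deposited table compares L2 with NL (3 libraries each, as numbered in its column names) and lists 11051 genes that the authors called differentially expressed (FDR of at most 0.05, absolute log2 ratio of at least 1). The authors assembled the reads de novo and mapped them with Bowtie2; the counting tool is not given in the sources used here. The authors deposited RPKM values per library, which are normalized to unigene length and library total. They also deposited the mean count per stage, an expected count that need not be whole, without normalization. The authors' mean RPKM, log2 ratio, p-value and FDR columns were not used.

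Combining RPKM with the mean counts gave back the reads, the library totals and the unigene lengths: 59302 of 59302 values above 0 were whole reads within a tolerance of 0.05. A read on 1 kb equals 0.133 to 0.172 RPKM in L2 and 0.190 to 0.259 RPKM in NL. Intervals cover counting error only. Floors cover counting error of the stage without reads, with the reads of the other stage taken as exact and library totals used.

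Genes were tested with limma 3.58.1 (trend, two-sided) in R 4.3.3 on log2(RPKM + 0.1), with Benjamini-Hochberg adjustment over all 11051 genes. Fold changes on this scale understate the change of genes without reads in a stage. CDPK29 had 5.87, against 8.87 by edgeR with library totals. For other low genes with libraries at 0 they can be the larger. Unigene0013013 had 3.93 against 2.92 by edgeR, and Unigene0009415 had -3.18 against -2.51. The p-values measure the spread between the 3 libraries of a stage. As alternatives, edgeR 4.0.16 (quasi-likelihood test with library totals, which called 46 members higher and 23 lower, and 7010 and 4041 of all listed genes, and with TMM factors) and DESeq2 1.42.0 were run on recovered reads, besides pseudocounts of 1 and 0.01, keeping genes that reached 1 RPKM in 3 or more libraries, upper quartile scaling, a replicate block, and leaving out each library. DESeq2 with library totals, and limma with TMM and with DESeq2's factors, were added after the data were seen. A simulation used 11051 genes with 200 of them shifted 3-fold, and limma found 71.0% of the shifted genes and made 5 false calls. Its setup was unlike the real table, where every gene had been selected as changed and limma called 63.0% higher and 36.3% lower. The simulation thus gives no measure of how many calls reported here are false or missed.

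The rule for named genes took, per role, the most abundant member and those with the largest rise and fall among members with at least 30 reads, plus those without reads in a stage (28 in all). All other genes named, also those given in full, were chosen after their values were seen. The members and lists were chosen with earlier results of these data known.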

Additional observations from a re-analysis of the deposited data

How the results depend on the processing

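No member changed direction under any alternative, and 27 of the 69 members passed under every one. The count of members higher in L2 was 46, and it was 35 with upper quartile scaling, 18 with edgeR's TMM factors and 8 with DESeq2's size factors, while the count lower stayed at 23 under these 3. These scalings set L2 lower against NL by 0.50, 0.85 and 1.08 (log2), with other amounts for genes near 0. This enlarges falls and shrinks rises, so the steady count of falls was built in. The scalings take most genes as level, an assumption unmet where every listed gene was called. Over all listed genes TMM factors gave 4268 higher and 4041 lower, and DESeq2 2779 and 4021, against 6967 and 4007 with limma. The median log2 change of the members was 1.31, and 1.18 with a pseudocount of 1, 0.82 with upper quartile scaling, 0.45 with TMM factors and 0.22 with DESeq2. In fits added after the data were seen, limma gave 17 members higher and a median of 0.46 with TMM factors, 9 and 0.23 with DESeq2's size factors, and DESeq2 with library totals gave 46 higher. Leaving out each library gave medians of 1.10 to 1.35, and 37 to 44 members higher and 21 to 23 lower, with the fewest without L2 replicate 1. The 60 sensors, kinases, pumps and channels alone gave 41 higher and 19 lower. With a replicate block 46 members were higher and 23 lower (6902 and 3992 of all listed genes), so no member's call was lost. The numbers are not shown to pair the libraries: deviations of same-numbered libraries correlated at 0.035, 0.023 and 0.060 across genes, although each library correlated best with its own number. Depth limits the members with few reads. For 3 without NL reads the folds are set against a floor, with L2 reads taken as exact and library totals used.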
